A study of Mus musculus with 12 samples.

Results

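miR-34, miR-146 and miR-155 are microRNAs (miRNAs) that cells are known to raise under DNA damage and inflammation. They were counted here in exosomes shed by mouse granulosa cells, through the entries mmu-miR-34a-5p, mmu-miR-34b-5p, mmu-miR-34c-5p, mmu-miR-146a-5p, mmu-miR-146b-5p and mmu-miR-155-5p. These 6 were taken by name, with earlier results of these data known. All 6 were among the 637 miRNA entries counted and among the 547 entries that could be tested. The granulosa cells were primary cells from the ovaries of female Kunming mice injected with horse serum gonadotropin, and they were kept for 24 h in DMEM/F12 without exosomes before an intervention of 48 h. The control group (CON) received nothing further. The FAC group received ferric citrate at 100 μM. The chelator deferoxamine mesylate, which binds iron, was given at 100 μM on top of the same ferric citrate in the DFO group, and in the VE group vitamin E, a lipophilic antioxidant, was added to it at 200 μM. The FAC, DFO and VE groups thus share the iron load, and no group received the chelator or vitamin E without iron. Each group had 3 libraries, and the labels do not say whether these came from separate animals or cultures, so that the p-values below measure the spread between these libraries, which may be technical. RNA was taken from vesicles isolated from the culture medium, and more vesicles and more RNA in each vesicle cannot be told apart in such samples.

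The miR-34 family is transcribed under direct control of p53 and represses genes of the cell cycle and of survival, among them Cdk6, Met and Bcl2. miR-34a has a gene of its own, whereas miR-34b and miR-34c are cut from 1 shared primary transcript. miR-146a and miR-155 are induced by NF-κB. miR-146a lowers Irak1 and Traf6 and so forms a negative feedback on Toll-like receptor and interleukin-1 signalling, while miR-155 lowers Socs1 and Inpp5d and sustains the activation of macrophages and lymphocytes. miR-34a, miR-146a and miR-155 have each been studied in ovarian granulosa cells.

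The mature sequences are shown because the seed, bases 2 to 8, sets which targets a miRNA recognizes, and because the near identity of miR-146a-5p and miR-146b-5p bears on how reads are assigned between them. Seeds are in capitals, sequences run 5′ to 3′ and are those of RefSeq, with positions in GRCm38.p6. The submitters' processing notes name mm9 for the files.
mmu-miR-34a-5p (chr4:150068473-150068494, + strand): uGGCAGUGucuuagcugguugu
mmu-miR-34b-5p (chr9:51103610-51103632, − strand): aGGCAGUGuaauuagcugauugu
mmu-miR-34b-3p (chr9:51103574-51103595, − strand): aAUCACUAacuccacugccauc
mmu-miR-34c-3p (chr9:51103044-51103065, − strand): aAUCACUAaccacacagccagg
mmu-miR-146a-5p (chr11:43374435-43374456, − strand): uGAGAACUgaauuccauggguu
mmu-miR-146b-5p (chr19:46342790-46342811, + strand): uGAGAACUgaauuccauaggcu
mmu-miR-155-5p (chr16:84714143-84714165, + strand): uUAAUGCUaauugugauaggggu

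A RefSeq sequence was matched to 547 entries, among them 5 of the 6, all but miR-34c-5p. miR-34a-5p and miR-34b-5p had the same seed. miR-146a-5p and miR-146b-5p shared a seed that no other matched entry had, and the seed of miR-155-5p was found in no other matched entry. miR-146a-5p and miR-146b-5p were identical over their first 17 bases and differed at 2 of 22 positions, as G18A and U21C (the base of miR-146a-5p, the position counted from the 5′ end, the base of miR-146b-5p). A read of 15 to 17 bases from the 5′ end cannot be assigned to one of them. The 3p arms of miR-34b and miR-34c, the other strands of their hairpins, shared a seed and their first 10 bases. In the RefSeq annotation Mir155 lay inside the long noncoding gene Mir155hg, its host transcript, and Mir34b and Mir34c overlapped the span of the protein-coding genes Btg4 and Hoatz, while no gene overlapped Mir34a or the gene of miR-146a.

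The miRNA counts of a library summed to between 452021 and 7565362, and the library totals behind the deposited RPM values (counts scaled to the total of the library) lay between 22631206 and 24845945. The 3 CON libraries had the fewest miRNA counts, at 452021 to 1211227, or 3.28% ± 1.55 of the library total (SD, n = 3), against 24.7% ± 4.96 in FAC, 12.6% ± 7.16 in DFO and 11.97% ± 2.69 in VE. Levels are therefore given on 2 scales. Normalized CPM, the CPM unit of edgeR, relates a count to the miRNA counts of its library, corrected by the TMM factor, and RPM relates it to the library total, so that a larger miRNA share raises RPM but not CPM. A count of 3, used as the floor of detection, was 0.351 CPM in the deepest library and 7.90 CPM in the shallowest. Intervals and floors given below cover counting error alone and leave out the spread between libraries. Copies made by PCR are not separate molecules, so that the intervals can be too narrow even for counting error. The 6 miRNAs were minor species that together took 0.0533% of all miRNA counts.

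The 72 values of the 6 miRNAs were far apart from each other. Of these, 14 were 0 and 12 more were 1 to 3 counts, only 7 lay between 4 and 20 counts, and 39 were above 20. miR-34c-5p and miR-146a-5p were above 3 counts in all 12 libraries, miR-34b-5p in 8, miR-146b-5p in 6, miR-155-5p in 5 and miR-34a-5p in 3.

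**Figure D1:**
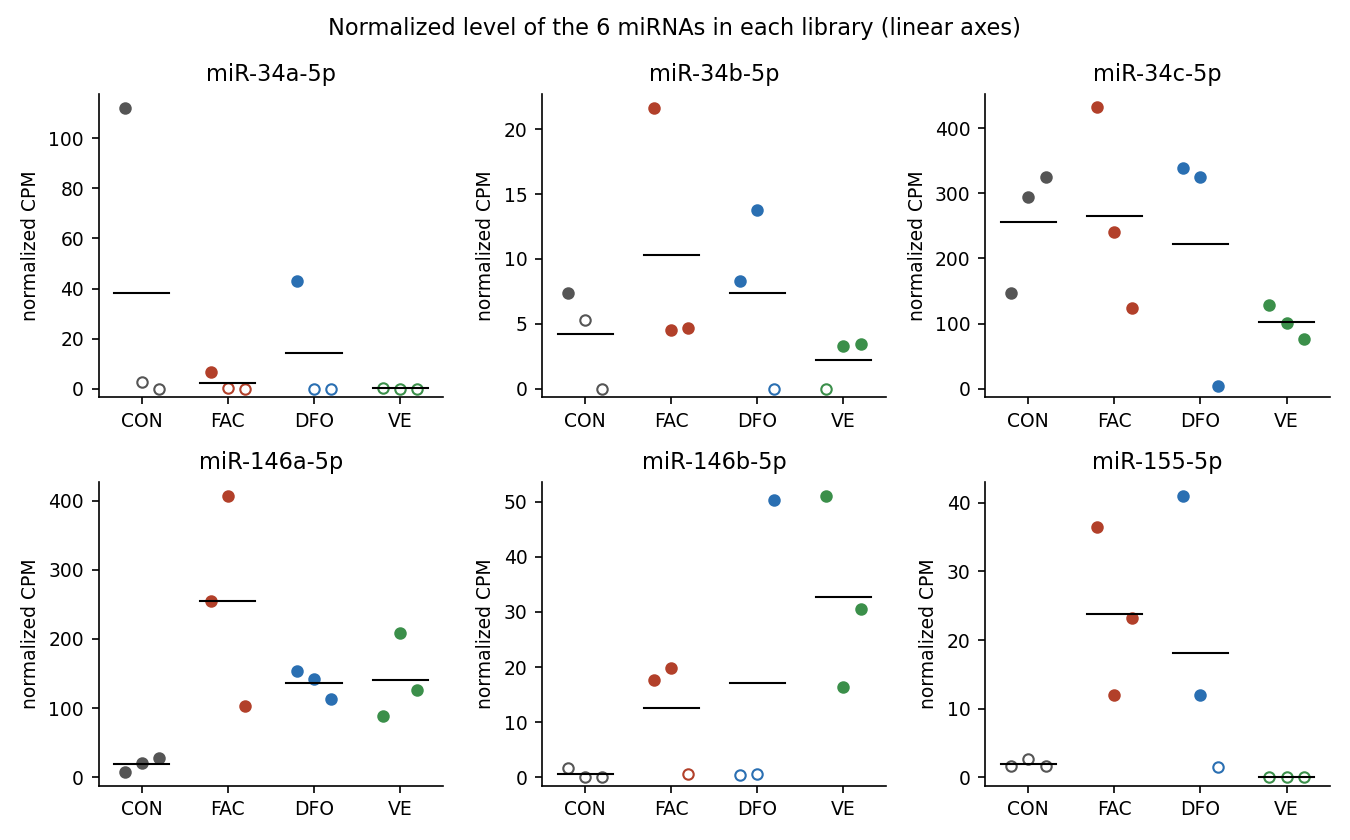
Normalized CPM (linear axes, each with its own range) of the 6 miRNAs in the 12 libraries, with replicates 1 to 3 from left to right in each group, the black line at the group mean and open points for libraries with 3 counts or fewer. miR-146a-5p is the only 1 of the 6 with every FAC, DFO and VE library above every CON library, at 88.5 to 407 CPM against 8.19 to 28.3 CPM.

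To ask how iron and each added agent went with these miRNAs, 5 comparisons were made in 1 edgeR quasi-likelihood fit of the 4 groups. A miRNA was called past the threshold at a fold change of at least 1.5 and an unadjusted p under 0.05, the study's threshold. Comparisons with FAC share the FAC libraries and those with CON share the CON libraries. FAC against CON called 1 of the 6, miR-146a-5p, which was higher in FAC, and 9.51% of all tested entries. FAC against DFO called 0 of the 6, and 0 had an unadjusted p under 0.05 in edgeR, while 12.2% of all entries were called; DESeq2 also called 0 and limma on RPM called 1. FAC against VE called miR-155-5p, higher in FAC, beside 9.32% of all entries. DFO against CON called miR-146a-5p, higher in DFO, beside 7.68%, and VE against CON called miR-146a-5p as higher and miR-34a-5p as lower in VE, beside 10.4%. After Benjamini-Hochberg adjustment over the 547 entries, the lowest adjusted p of the 6 in edgeR's test was 0.161, and none passed 0.05 in any of the 5 comparisons. The median log2 fold change of the 6 was 2.44 in FAC against CON, where that of all 547 entries was 1.38, and 0.32 in FAC against DFO, where that of all entries was 0.66. It was 1.77 in FAC against VE (all entries 0.63), both as fitted and with miR-155-5p at its bound, and 1.82 in DFO against CON (all entries 0). In VE against CON (all entries 0) it was −1.11 over the 6 as fitted. Over the 5 without miR-155-5p, which was at or under the floor in both groups, it was −0.90. The 2.44 in FAC against CON lay between the values of miR-34b-5p (1.28) and miR-155-5p (3.61). It thus depends on CON values of miR-155-5p that were under the floor. The median of all entries depended on the filter. With edgeR's filterByExpr filter, which drops entries of low count, 312 entries were kept. Their median was 0.0788 in FAC against CON, −0.17 in FAC against DFO and −0.00156 in FAC against VE. Replicates varied widely, with a biological coefficient of variation of 1.57 in edgeR.

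miR-146a-5p was scarce in exosomes of untreated cells and higher in each library of iron-treated cells, whether or not the chelator or vitamin E was added. Its counts in CON replicates 1 to 3 were 10, 8 and 18, and in the FAC replicates 2177, 3047 and 505. The DFO replicates held 445, 788 and 151 counts and the VE replicates 196, 572 and 399. In normalized CPM these were 8.19, 21.1 and 28.3 in CON, 255, 407 and 102.6 in FAC, 153, 141 and 113 in DFO, and 88.5, 208 and 125 in VE. The lowest iron-treated library, VE replicate 1, stood above the highest untreated one, CON replicate 3, whereas the FAC, DFO and VE libraries overlapped one another. In the order of group means (FAC, VE, DFO, CON) only the step from DFO to CON was free of overlap. The mean placed miR-146a-5p at rank 87 of the 637 entries in FAC, 111 in VE, 112 in DFO and 211 in CON.

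The mean level of miR-146a-5p was 19.2 ± 10.2 CPM in CON (SD, n = 3) and 255 ± 152 CPM in FAC (SD, n = 3). The median of all 547 entries in FAC against CON, 1.38, was 0.0788 over the 312 kept by filterByExpr. The log2 fold change of miR-146a-5p in FAC against CON was 3.74 (SE 1.38), and 2.36 after subtraction of the median of the 547. It passed the threshold in edgeR's quasi-likelihood test, with a Benjamini-Hochberg adjusted p = 0.161. DFO stood at 136 ± 20.5 CPM (SD, n = 3), with a log2 fold change over CON of 2.83 (SE 1.33), which passed it too (adjusted p = 0.625). VE stood at 141 ± 61.4 CPM (SD, n = 3), with a log2 fold change over CON of 2.88 (SE 1.33), which also passed it (adjusted p = 0.460). FAC exceeded DFO by a log2 value of 0.91 (SE 1.24) and VE by 0.86 (SE 1.24), which edgeR did not call (adjusted p = 0.711 and 0.775). An exact two-sided permutation test of the CPM gave p = 0.1 for each of the 3 groups against CON, the smallest that 3 libraries against 3 allow, and p = 0.0636 for FAC against the 9 other libraries.

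Scaling to the library total left the same separation and made it wider. miR-146a-5p had 0.413, 0.353 and 0.728 RPM in CON and 87.6, 126 and 20.6 RPM in FAC. The DFO libraries had 18.3, 32.1 and 6.08 RPM and the VE libraries 8.10, 23.6 and 16.5 RPM. The 9 libraries with ferric citrate were above the 3 CON libraries in 0.548% of the tested entries by CPM, which are 3 entries, and in 5.85% by RPM. The other two by CPM, named after their values were seen, were miR-1199-5p, with 17.6 CPM in the lowest iron-treated library and 7.90 CPM in the highest CON library, and miR-222-3p, with 63.8 and 61.4 CPM. With counts scaled to library totals, edgeR gave a log2 fold change of 7.28 in FAC against CON (Benjamini-Hochberg adjusted p = 0.000219), which was 2.93 above the median of all entries in that fit. The adjusted p in FAC against CON was under 0.05 in 4 of the 10 alternatives, of which DESeq2 (log2 fold change 3.57, adjusted p = 0.000523) was the one also scaled to miRNA counts. Over all 10 alternatives it ran from 9.27e-05 to 0.316.

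**Figure D2:**
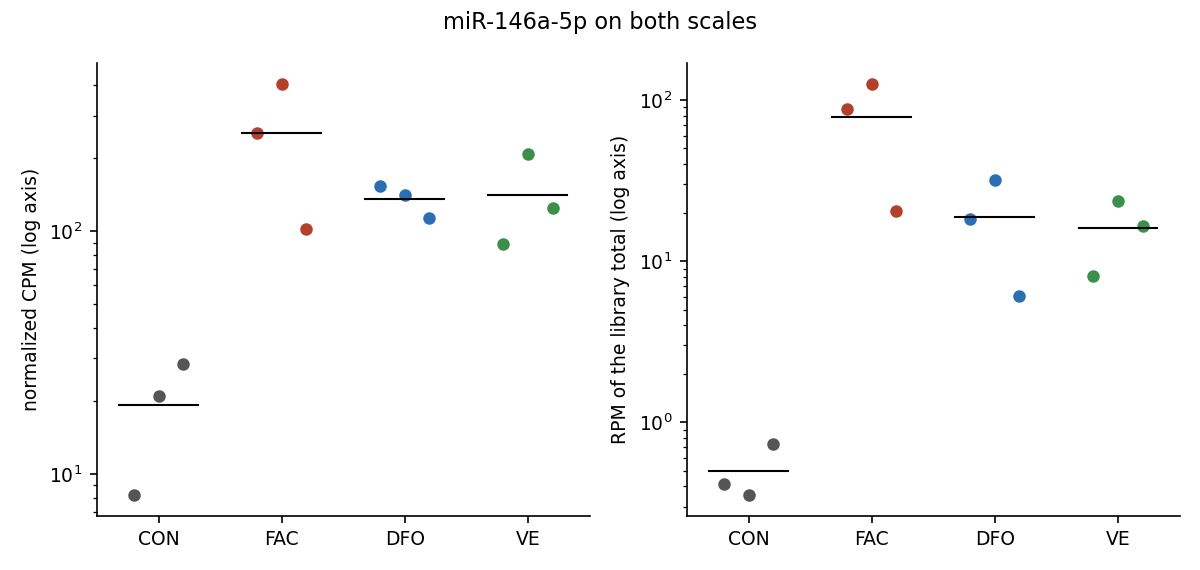
miR-146a-5p in the 12 libraries on log axes, in normalized CPM (left) and in RPM of the library total (right), with replicates 1 to 3 from left to right and the black line at the group mean. The 3 CON libraries sit below the other 9 on both scales, at up to 28.3 CPM and 0.728 RPM, while the lowest of the other 9 are at 88.5 CPM and 6.08 RPM.

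The groups compared differed in depth, and the log2 CPM of miR-146a-5p ran with the log2 depth of the 12 libraries (Pearson's r = 0.79, a description over libraries of 4 groups). Every CON library was shallower than every library with ferric citrate. The deepest of CON, replicate 1 with 1211227 miRNA counts, held 10 counts of miR-146a-5p. The shallowest with ferric citrate, DFO replicate 3 with 1373519 miRNA counts, held 151. These are 1 library each, and the part of depth in this result was not tested. With each of the 12 libraries left out in turn, miR-146a-5p was past the threshold in FAC against CON in 12 of 12 fits, with log2 fold changes of 3.33 to 4.34. In DFO against CON the call was lost without CON replicate 1 (log2 fold change 2.46) and without DFO replicate 1 (2.68). In VE against CON it was lost without CON replicate 1 (log2 fold change 2.51), FAC replicate 1 (2.73) and VE replicate 2 (2.49). A fit of the 2 compared groups alone also lost both, at log2 fold changes of 2.82 for DFO and 2.74 for VE. miR-146a is abundant in leukocytes, and the 6 leukocyte and blood miRNAs differed among themselves in the same libraries. miR-150-5p, a miRNA of lymphocytes, was at 315, 15.8 and 223 CPM in CON, 5.86, 23.8 and 98.5 CPM in FAC, 106, 17.2 and 367 CPM in DFO and 1.81, 67.1 and 167 CPM in VE, so that these groups overlapped. miR-142a-3p had no count in 11 libraries and 1 in VE replicate 3, miR-223-3p was counted in FAC replicate 2 alone (2.27 CPM), and miR-142a-5p reached 60.3 CPM in VE replicate 3 but at most 3.21 CPM elsewhere. The part of leukocytes in the level of miR-146a-5p was not tested.

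miR-146b-5p, the paralog with the same seed from another chromosome, was lower and far more scattered. It had 2, 0 and 0 counts in CON, 150, 148 and 3 in FAC, 1, 3 and 67 in DFO and 113, 45 and 97 in VE. In normalized CPM the values were 1.64, 0 and 0 in CON, 17.6, 19.8 and 0.609 in FAC, 0.345, 0.538 and 50.3 in DFO, and 51.0, 16.4 and 30.5 in VE. VE was the group without a library near 0, whereas FAC replicate 3 and DFO replicates 1 and 2 were within or near the range of CON. VE libraries did not overlap CON libraries, and 13% of all tested entries showed no overlap in that comparison. With 255 counts in VE and 2 in CON, the pooled ratio of normalized levels was 35.0 (95% interval from counting error 9.60 to 291). edgeR did not call VE against CON (adjusted p = 0.524), nor FAC against CON, where the pooled ratio was 16.1 (4.41 to 133, adjusted p = 0.607).

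The balance between the miR-146 paralogs, which no scaling of libraries can move, differed between libraries of one group. miR-146b-5p made up 6.45% of the reads of both in FAC replicate 1 (95% Wilson interval 5.52 to 7.52), 4.63% in FAC replicate 2 (3.96 to 5.42) and 0.591% in FAC replicate 3 (0.201 to 1.72). In the VE replicates it was 36.6% (31.4 to 42.1), 7.29% (5.50 to 9.62) and 19.6% (16.3 to 23.3). DFO replicates 1 and 2 had 0.224% and 0.379%, and DFO replicate 3 had 30.7% (25.0 to 37.1). Every VE library had a higher share than every FAC library (p = 0.1 in an exact two-sided permutation test, its lowest attainable value, and 0.300 adjusted over the 24 tests made on 4 such shares). The CON shares rest on 8 to 18 counts of both together, and their intervals reach up to 44.8%, 32.4% and 17.6%. How reads that end before position 18 were assigned is not given in the sources used here.

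miR-155-5p was the 1 of the 6 with no count in a whole group. The 3 VE libraries held 0 counts, which allows up to 1.36, 1.09 and 0.943 CPM. The CON libraries held 2, 1 and 1 counts, the FAC libraries 311, 90 and 114, and the DFO libraries 119, 67 and 2. In normalized CPM these were 1.64, 2.63 and 1.57 in CON, 36.4, 12.02 and 23.2 in FAC, and 41.0, 12.01 and 1.501 in DFO. All 3 FAC libraries and DFO replicates 1 and 2 were above every CON and VE library. DFO replicate 3, with 2 counts, lay under its floor of 2.25 CPM, so that its order against the CON libraries is not resolved. The CON values all lay under the floor of their library, so that no difference between CON and VE was detectable at this depth.

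The mean level of miR-155-5p in FAC, 23.9 ± 12.2 CPM (SD, n = 3), was at least 21.1-fold higher than in VE, with VE taken at its floor of 3 counts in each library. edgeR's quasi-likelihood test called this difference (Benjamini-Hochberg adjusted p = 0.444), and it was past the threshold in 10 of 10 alternatives, with adjusted p from 0.000115 in DESeq2 to 0.620. The call was lost without VE replicate 2 (edgeR, adjusted p = 0.644) and kept in the other 11 fits that left out 1 library. Against CON, with 4 counts in all, the pooled ratio of FAC was 13.7 (95% interval from counting error 5.34 to 50.6) and that of DFO was 10.7 (4.12 to 39.7). Neither was called by edgeR (adjusted p = 0.607 and adjusted p = 0.780). DFO was at 18.2 ± 20.5 CPM (SD, n = 3) and overlapped FAC. The libraries of FAC and VE were also free of overlap for miR-34b-5p, beside 14.6% of all tested entries, and those of FAC and CON for miR-146a-5p and miR-155-5p, beside 13.3%. In DFO against CON this held for miR-146a-5p alone of the 6 (all entries 6.03%) and in FAC against DFO for none (all entries 16.6%). By RPM, the libraries of FAC were above those of CON for 5 of the 6, all but miR-34a-5p, where 31.4% of all entries did not overlap.

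miR-34a-5p, the best known p53 target among miRNAs, was found above 3 counts in replicate 1 of CON, FAC and DFO and in no other library. It had 137, 1 and 0 counts in CON, 58, 1 and 0 in FAC, 125, 0 and 0 in DFO and 1, 0 and 0 in VE. In normalized CPM replicate 1 stood at 112 in CON, 6.79 in FAC, 43.1 in DFO and 0.452 in VE, and the remaining 8 libraries were between 0 and 2.63. CON replicate 1 carried 67.9% of the CPM summed over the 12 libraries. The spread within groups exceeded their means, at 38.3 ± 64.0 CPM in CON, 14.4 ± 24.9 in DFO and 2.31 ± 3.88 in FAC (SD, n = 3 each). VE against CON was called in edgeR (Benjamini-Hochberg adjusted p = 0.460), where 1 count in VE stood against 138 in CON, a pooled ratio of 0.00199 (95% interval from counting error 5.01e-05 to 0.0113). The call rests on 1 library, since without CON replicate 1 the log2 fold change was −2.85 and not past the threshold. It was also lost without VE replicate 2 (−7.26) and VE replicate 3 (−7.24), and it held in 3 of the 10 alternatives. The groups overlapped in each comparison of miR-34a-5p with CON and with FAC. Without CON replicate 1, FAC against CON turned to a log2 value of 0.88, and without DFO replicate 1, which leaves no count in DFO, DFO against CON passed the threshold.

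miR-34c-5p was the most abundant of the 6 in CON, DFO and FAC, and its group means in CPM lay between 102 and 265. Its counts were 179, 112 and 207 in CON, 3686, 1805 and 608 in FAC, 985, 1810 and 6 in DFO and 286, 278 and 243 in VE. In normalized CPM they came to 147, 295 and 325 in CON, 432, 241 and 123.5 in FAC, 339, 325 and 4.50 in DFO and 129, 101 and 76.4 in VE. DFO replicate 3 stood apart with 6 counts, and the VE libraries, all within 76.4 to 129 CPM, were below the 3 CON libraries. That order turned with the scale, as the same libraries had 10.0 to 11.8 RPM in VE and 4.95 to 8.37 RPM in CON, where 23.2% of all tested entries did not overlap. The log2 fold change of miR-34c-5p was 0.05 (SE 1.08) in FAC against CON, 0.25 (SE 1.08) in FAC against DFO, 1.38 (SE 1.10) in FAC against VE and −1.32 (SE 1.10) in VE against CON, and edgeR called none of these (adjusted p of 0.521 or more). The sign in FAC against CON turned to −0.18 with the size factors of DESeq2. Relative to library totals it was 3.58 (edgeR, Benjamini-Hochberg adjusted p = 0.0358), a value 0.77 below the median of all entries in that fit.

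miR-34b-5p, from the same transcript, was far lower, with group means of 2.25 to 10.3 CPM. Its counts were 9, 2 and 0 in CON, 185, 34 and 23 in FAC, 24, 77 and 0 in DFO and 0, 9 and 11 in VE. FAC was the 1 group with more than 3 counts in all 3 libraries, at 21.7, 4.54 and 4.67 CPM, while CON had 7.37, 5.27 and 0 CPM, DFO 8.27, 13.8 and 0 CPM and VE 0, 3.28 and 3.46 CPM. The pooled ratio of FAC to VE was 4.70 (95% interval from counting error 2.98 to 7.83), and edgeR did not call it (adjusted p = 0.789). Neighbouring groups in the order of means, FAC, DFO, CON and VE, overlapped at each step for miR-34b-5p, and in the order FAC, CON, DFO and VE for miR-34c-5p.

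The other arms of the miR-34b and miR-34c hairpins were in the files as well and were read to see whether both products of the transcript moved together. The 3p arm of miR-34b was the major product. Its counts were 380, 124 and 24 in CON, 2187, 2103 and 385 in FAC, 2561, 5002 and 985 in DFO and 787, 1239 and 860 in VE, and the 5p arm was at most 7.80% of both arms in a library. In normalized CPM miR-34b-3p stood at 311, 326 and 37.7 in CON, 256, 281 and 78.2 in FAC, 882, 897 and 739 in DFO and 355, 452 and 270.3 in VE. The 3 DFO libraries were above the 9 others, as were those of 1.1% of all tested entries, and the other 3 groups overlapped.

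miR-34b-3p averaged 839.5 ± 87.1 CPM in DFO and 205 ± 111 CPM in FAC (SD, n = 3 each). In FAC against DFO its log2 fold change was −2.03 (SE 0.94), past the threshold in edgeR (Benjamini-Hochberg adjusted p = 0.331), and in DFO against CON it was 1.90 (SE 0.94, adjusted p = 0.641), also past it. By RPM the DFO libraries, at 105, 204 and 39.7, overlapped the FAC libraries, at 88.0, 87.2 and 15.7, and with library totals edgeR's log2 fold change was −0.87 and not called. FAC against DFO was no longer called without FAC replicate 3 (log2 fold change −1.70), DFO replicate 1 (−1.91) and DFO replicate 2 (−1.98). DFO against CON was no longer called without CON replicate 3 (log2 fold change 1.53), DFO replicate 1 (1.77), DFO replicate 2 (1.85), VE replicate 2 (1.90) and VE replicate 3 (1.90).

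miR-34c-3p followed another order. It had 150, 11 and 12 counts in CON, 2302, 1415 and 764 in FAC, 178, 1030 and 159 in DFO and 327, 213 and 374 in VE. These were 122.9, 29.0 and 18.9 CPM in CON, 269.6, 189 and 155.2 CPM in FAC, 61.3, 185 and 119 CPM in DFO and 148, 77.6 and 118 CPM in VE. FAC was above CON in each library, with a log2 fold change of 1.84 (SE 1.31) that edgeR did not call (adjusted p = 0.607), though 4 of the 10 alternatives did.

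**Figure D3:**
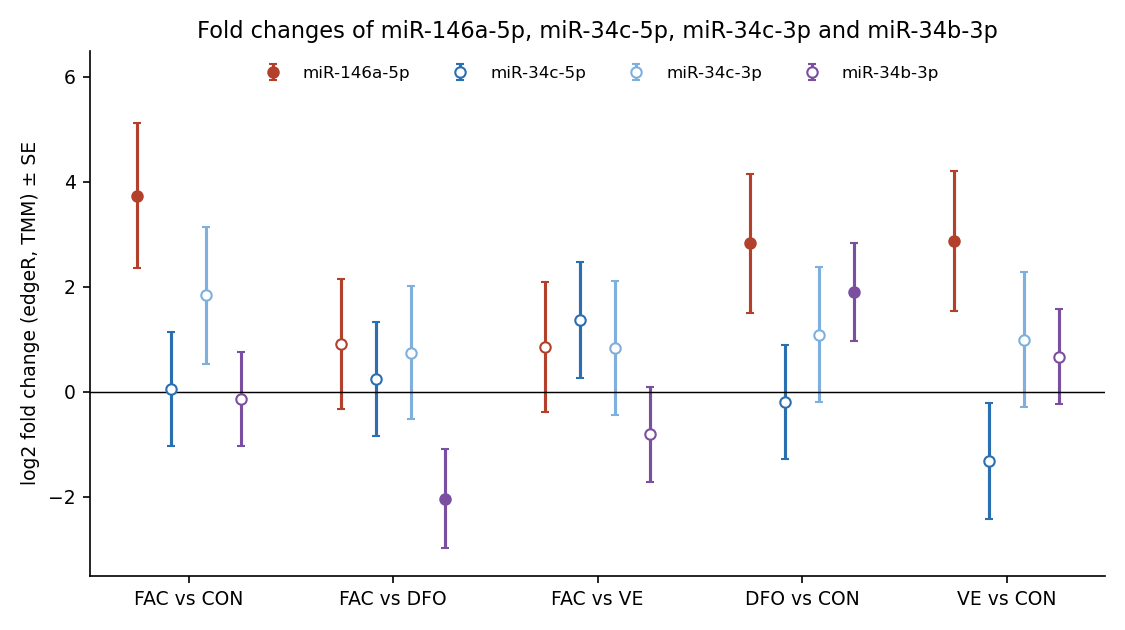
Log2 fold change ± SE from edgeR's fit of the 12 libraries (vertical axis) in the 5 comparisons (horizontal axis) for miR-146a-5p, miR-34c-5p, miR-34c-3p and miR-34b-3p, with filled points past the threshold of a 1.5-fold change and an unadjusted p under 0.05. miR-146a-5p is filled in the 3 comparisons with CON, at 3.74, 2.83 and 2.88, and miR-34b-3p in FAC against DFO (−2.03) and DFO against CON (1.90).

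Shares within the miR-34b and miR-34c transcript do not depend on the scaling of libraries. The shares tested were chosen after the values were seen. Of the reads of the 2 3p arms, miR-34c-3p took 51.3%, 40.2% and 66.5% in the FAC replicates. It took 28.3%, 8.15% and 33.3% in CON, 6.499%, 17.1% and 13.9% in DFO and 29.4%, 14.7% and 30.3% in VE. The 3 FAC libraries were above the 9 others, with a mean of 52.7% ± 13.2 against 23.3% ± 13.3 in CON, 12.5% ± 5.43 in DFO and 24.8% ± 8.77 in VE (SD, n = 3 each). An exact two-sided permutation test of FAC against the 9 others gave p = 0.00909, the smallest possible, and 0.218 after Benjamini-Hochberg adjustment over the 24 tests of shares. The CON share in replicate 3 rests on 36 counts (95% Wilson interval 20.2 to 49.7%). The 5p arm of miR-34b had 7.80%, 1.59% and 5.64% of the reads of both arms in FAC and 0 to 2.31% in the other 9 libraries (exact permutation p = 0.0182, adjusted 0.218), and FAC replicate 2 was within the range of the others.

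The arms of miR-34c were balanced very differently from library to library. miR-34c-5p took 54.4%, 91.1% and 94.5% of the reads of both arms in CON, 61.6%, 56.1% and 44.3% in FAC, and 46.7%, 56.6% and 39.4% in VE. In DFO it took 84.7% (95% Wilson interval 82.5 to 86.6) in replicate 1, 63.7% (61.9 to 65.5) in replicate 2 and 3.64% (1.68 to 7.71) in replicate 3. DFO replicate 3 was low for this arm and not for the 3p arms, of which it held 159 counts of miR-34c-3p and 985 of miR-34b-3p. The same library was also the one with 2 counts of miR-155-5p, and it held 67 of the 71 miR-146b-5p counts of its group.

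**Figure D4:**
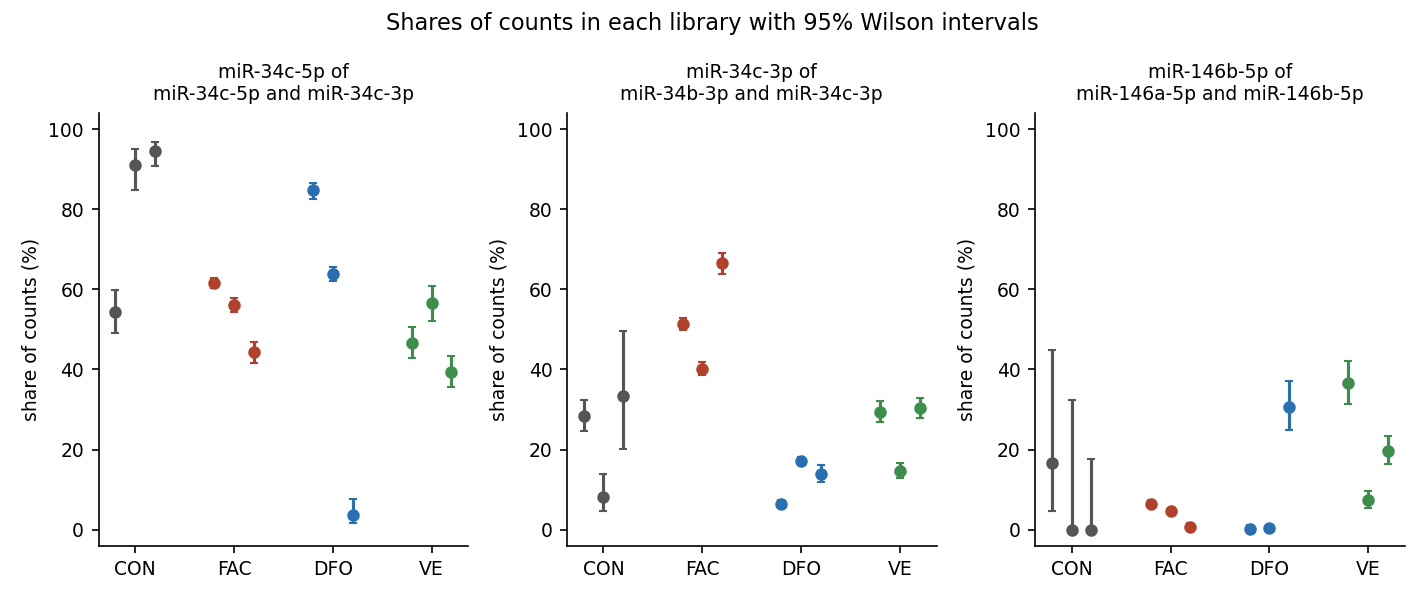
Share of counts in percent (vertical axes) in each of the 12 libraries, with 95% Wilson intervals from counting error, for miR-34c-5p among both arms of its hairpin (left), miR-34c-3p among the 3p arms of miR-34b and miR-34c (middle) and miR-146b-5p among both miR-146 5p miRNAs (right). The 3 FAC libraries lie above the other 9 in the middle plot, at 40.2% to 66.5% against 6.499% to 33.3%, and DFO replicate 3 lies at 3.64% in the left plot and 30.7% in the right one.

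The entries whose levels ran most like each of the 6 were sought over the 12 libraries, by Pearson's r of log2 CPM, among 207 entries with at least 10 counts in 6 or more libraries. miR-34a-5p and miR-155-5p did not meet that count. miR-146a-5p was most like miR-103-3p (r = 0.85), miR-30a-5p (r = 0.74) and miR-298-5p (r = 0.74). For miR-146b-5p the closest were miR-22-5p (r = 0.81), miR-221-3p (r = 0.78) and miR-7a-5p (r = 0.77), and its r with miR-146a-5p was 0.51. miR-34b-5p ran most like miR-28a-3p (r = 0.77), miR-1843a-3p (r = 0.75) and miR-1947-5p (r = 0.71), and miR-34c-5p most like miR-1843a-3p (r = 0.63), miR-503-5p (r = 0.60) and miR-676-5p (r = 0.59). miR-34b-5p and miR-34c-5p had an r of 0.55 with each other. Between miR-34c-5p and its own 3p arm the r was −0.14. These values describe 12 libraries of 4 groups that share the normalization, and they carry no test.

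Other miRNAs that p53 is known to induce or to help mature were read as a list for comparison. Of the 10 listed, 9 were in the files and 8 were tested, and miR-143-3p was the 1 past the threshold in any comparison. It was the most abundant of them, at 30994 to 108429 CPM in CON, 36692 to 66232 in FAC, 23594 to 43417 in DFO and 13784 to 20573 in VE. It was lower in VE than in CON, with a log2 fold change of −1.95 (SE 0.42) and a Benjamini-Hochberg adjusted p = 0.00103 in edgeR, although over the 10 alternatives this value ran from −2.12 to 0.21. In DFO against CON its log2 fold change was −1.09 (SE 0.41, adjusted p = 0.373), with a range from −1.19 to 1.06. It was higher in FAC than in VE (1.496, SE 0.41, adjusted p = 0.0566) under all 10 alternatives. miR-143-3p is also a marker of stromal and smooth muscle cells. The median log2 fold change of the 8 was 0.83 in FAC against CON, where that of all entries was 1.38. miR-192-5p (18.9 to 632 CPM) and miR-145a-5p (7.92 to 447 CPM) were next in abundance and were not called.

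Of the 12 further miRNAs linked to inflammation, 11 were tested, and in FAC against CON 0 were past the threshold in edgeR, at either sign. FAC against DFO called 3 of the 11 (all entries 12.2%), FAC against VE 1 (9.32%), DFO against CON 2 (7.68%) and VE against CON 2 (10.4%). miR-125a-5p, which represses Tnfaip3, had 20231, 24262 and 6662 CPM in DFO and 1495, 2241 and 5265 CPM in FAC. It was lower in FAC than in DFO, with a log2 fold change of −2.51 (SE 0.54, edgeR's Benjamini-Hochberg adjusted p = 0.000724), and higher in DFO than in CON (1.64, SE 0.53, adjusted p = 0.220). miR-181a-5p was higher in FAC, at 530.4 to 1110 CPM, than in DFO, at 124 to 302 CPM (log2 fold change 2.26, SE 0.88, adjusted p = 0.189). let-7i-5p, which represses Tlr4, had a log2 fold change of −1.57 in VE against CON (SE 0.60, adjusted p = 0.235), with a range from −1.81 to 0.38 over the 10 alternatives. miR-9-5p, induced by NF-κB, was called in 4 comparisons. It had no count in the 6 CON and FAC libraries, and the VE libraries had 18.1, 8.02 and 8.49 CPM. DFO replicate 3 with 149 CPM stood far from DFO replicates 1 and 2 (0 and 2.33 CPM). miR-125b-5p, the most abundant of the list by summed counts, was at 5039 to 15268 CPM and was not called in any of the 5 comparisons.

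Markers of the cell types that could have shed the vesicles, and of serum, were read in the same libraries. Of the 6 granulosa-linked miRNAs, 5 were present, with a summed level of 1849 to 2846 CPM in CON, 1474 to 3463 in FAC, 954 to 1696 in DFO and 1185 to 1704 in VE. Most of it was miR-21a-5p, which many cell types express, while miR-212-3p was counted in FAC replicates 1 and 2 alone (4.92 and 5.21 CPM). miR-224-5p was next in abundance, at 65.8 to 346 CPM in CON, 237 to 512 in FAC, 11.4 to 342 in DFO and 157 to 356 in VE. miR-132-3p was at 1.57 to 49.1 CPM in CON, 0 to 38.1 in FAC, 0 to 10.5 in DFO and 0.314 to 0.903 in VE. Neither was called in any of the 5 comparisons. miR-378a-3p had 78.5, 162 and 1.42 CPM in FAC and 0.452, 0 and 0.629 CPM in VE, and was past the threshold as higher in FAC in edgeR (log2 fold change 7.66, SE 2.86, adjusted p = 0.339). The 6 leukocyte and blood miRNAs summed to 273.6 to 1119.7 CPM in CON, 364 to 741.5 in FAC, 92.9 to 1014 in DFO and 663.5 to 4026 in VE. These sums were carried by the red cell miRNA miR-451a and by miR-150-5p, with miR-144-3p at 0 in 11 libraries. miR-451a was past the threshold in FAC against VE (log2 fold change −1.94, SE 0.83, edgeR's adjusted p = 0.444) and in VE against CON (1.80, SE 0.82, adjusted p = 0.460), with 3798 CPM in VE replicate 3 and 8.61 to 804 CPM elsewhere. Stromal markers summed to 31019 to 108861 CPM in CON, 37132 to 66551 in FAC, 23880 to 43877 in DFO and 13952 to 20796 in VE, nearly all of it miR-143-3p. The endothelial miR-126a-3p was between 0.345 and 154.8 CPM. miR-122-5p, the miRNA of hepatocytes that is abundant in serum, was at 41724 to 183380 CPM in the 12 libraries. It was past the threshold in FAC against VE (log2 fold change −0.98, SE 0.35, edgeR's adjusted p = 0.284), with a range from −1.09 to 0.23 over the 10 alternatives. miR-378a-3p, miR-451a, miR-122-5p and the stromal miR-143-3p were thus called in the comparison of FAC with VE that called miR-155-5p. miR-451a and miR-143-3p were called in that of VE with CON, which called miR-146a-5p and miR-34a-5p. miR-143-3p was also called in that of DFO with CON, which called miR-146a-5p. The part of these cell types and of serum in the values of the 6 miRNAs was not tested.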

How the data were processed

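Small RNA of granulosa cell exosomes (exoEasy Maxi kit, Illumina sequencing, reads of 15 to 41 bp) was measured in 12 libraries, 3 in each of 4 groups named by their titles. The authors deposited counts of reads for 637 entries, 5 of which join 2 names, and the same values as RPM of a library total. Each count divided by its RPM gave 1 total per library, and the reads that make up this total are not given in the sources used here, nor are the aligner, counter and miRNA database. No pair of libraries agreed within sampling noise (smallest chi-square per degree of freedom 101.9 over 66 pairs). The 547 entries with at least 10 counts were fitted with edgeR 4.0.16 (TMM, quasi-likelihood, 4 groups in 1 fit, R 4.3.3), with Benjamini-Hochberg adjustment over all 547. Standard errors were derived from the F statistic and the log2 fold change. The fit was checked on simulated counts of FAC against CON, with a log2 change of 3 put into part of the entries. At a low spread, 167 of 188 changed entries had an adjusted p under 0.05, with 4 false calls. At the common spread observed here, 0 of 187 did, with 0 false calls. Each simulation gave all entries the same spread. In the data some abundant entries had smaller standard errors and an adjusted p under 0.05 in edgeR's test. Among them were miR-143-3p in VE against CON (SE 0.42) and miR-125a-5p in FAC against DFO (SE 0.54). Spreads between the simulated ones were not tried. At the common spread a missing adjusted call is no sign that a miRNA was unchanged. DESeq2 1.42.0, limma 3.58.1 on log2(RPM + 1) and log2(RPM + 0.1), other scalings and filters, a fit of the compared groups, the replicate number as a term and each library left out were the alternatives. Pooled ratios compare summed counts relative to summed effective library sizes, with exact 95% intervals. Shares have 95% Wilson intervals, and single values were compared by exact two-sided permutation tests in SciPy 1.17.1. The 6 miRNAs and all lists were chosen with earlier results of these data known. Named besides the 6 were the other arms of their hairpins, p53-linked and inflammation-linked miRNAs past the threshold or among the 3 most abundant of their list, the 3 entries most like each of the 6, and markers of cell types. Absent from the entries used here were miR-34a-3p, miR-146a-3p, miR-155-3p, miR-449a-5p, miR-449b and miR-449c-5p. miR-146b-3p had 27 counts in all and is not discussed.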

Additional observations from a re-analysis of the deposited data

How the results depend on the processing

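The number of the 6 past the threshold in FAC against CON was 1 as reported, 4 with counts scaled to library totals (159 of all entries, against 52), 3 with DESeq2 (72), 3 with limma at a pseudocount of 1 RPM (195) and 4 at 0.1 RPM (192). In FAC against DFO it was 0, and 1 with each limma fit (123 and 115 of all entries, against 67). In FAC against VE it was 1, against 2 with library totals (81 of all, against 51), 2 in a fit of the compared groups alone (67) and 3 with limma at 1 RPM (103). In DFO against CON it was 1, against 2 with library totals (93 of all, against 42), 3 with DESeq2 (51) and 0 in the compared groups alone (25, of 362 tested). In VE against CON it was 2, against 1 with the size factors of DESeq2, with edgeR's filterByExpr filter (36 of all, against 57) and with limma at 1 RPM (97), and 0 in the compared groups alone. With an adjusted p under 0.05 as the rule it was 0 in each of these 4 comparisons with a call. With 1 library left out it stayed at 1 in FAC against CON and at 0 in FAC against DFO, and ran from 0 to 1 in FAC against VE, 0 to 1 in DFO against CON and 0 to 2 in VE against CON. Calls over all entries then ran from 33 to 63, 41 to 71, 25 to 61, 27 to 51 and 32 to 69, in the same order of comparisons.

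Same-numbered replicates of different groups did not deviate together (mean r 0.00421 over 18 pairs, from −0.0860 to 0.0690, against −0.00202 over 36 pairs of different numbers), and 4 of 12 libraries correlated best with their own number. With the replicate number as a block, VE against CON called 1 of the 6 and all calls were 39, 54, 32, 23 and 36 in that order. The samples share only a number.

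The fold changes of the 6 were followed in all 5 comparisons, and those of miR-34b-3p only in FAC against DFO and DFO against CON. Outside these counts, miR-34b-3p had a log2 fold change of −0.13 in FAC against CON and −0.81 in FAC against VE. Its mean RPM had the other order, at 63.6 in FAC, 7.38 in CON and 39.7 in VE. In VE against CON (0.67) both scales had the same order. Of the 314 values followed under alternatives with all libraries, 251 kept their sign and side of the threshold, 13 lost the call, 22 gained it and 28 turned sign. Of 384 with 1 library left out, 344 kept both, 17 lost it, 1 gained it and 22 turned. The cause was not tested. The log2 fold change of miR-34b-5p turned to −0.0041 in FAC against DFO with filterByExpr, and in VE against CON to 0.82 with library totals, 0.35 with the block, and 0.14 and 0.52 with limma. That of miR-34c-5p turned in FAC against CON to −0.18 with the size factors of DESeq2 and −0.18 with DESeq2, −0.19 with filterByExpr and −0.31 with the block, and in FAC against DFO to −0.0886, −0.0887, −0.19 and, in the compared groups alone, −0.0179. In DFO against CON it turned to 0.0178 with total counts, 2.46 with library totals, 0.0047 with no filter, and 1.01 and 0.56 with limma, and in VE against CON to 0.68 with library totals and 0.64 and 0.71 with limma. That of miR-146b-5p turned in FAC against DFO to 2.10 with library totals, 0.44 with the block, and 1.24 and 2.20 with limma, and in FAC against VE to 0.22 with library totals. That of miR-155-5p turned in FAC against DFO to −0.0409 with the size factors of DESeq2 and −0.0418 with DESeq2. With 1 library left out, the value of miR-34a-5p ran from −8.41 to 0.88 in FAC against CON, −7.31 to 6.08 in FAC against DFO, −0.57 to 6.06 in FAC against VE and −10.11 to 3.50 in DFO against CON. That of miR-34b-5p ran from −0.87 to 1.30 in FAC against DFO and −0.0204 to 1.53 in DFO against CON, and that of miR-34c-5p from −0.49 to 0.44 in FAC against CON, −0.49 to 0.64 in FAC against DFO and −0.57 to 0.38 in DFO against CON. That of miR-146b-5p ran from −0.995 to 4.73 in FAC against DFO and −0.53 to 8.95 in DFO against CON, and that of miR-155-5p from −0.36 to 1.76 in FAC against DFO. Depth limits the 26 values of 3 counts or fewer, most of all in CON.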
